A study of Mus musculus with 2 samples.

Results

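The cytosolic ribosomal protein genes encode the proteins of the ribosome that translates nuclear messenger RNA. They were taken as all protein-coding gene rows whose mouse GENCODE symbol has the form Rpl or Rps with a number, or is Rplp0, Rplp1, Rplp2 or Rpsa, with the Rps6k kinases left out. The rule found 84 genes among 43346 gene rows, of which 21474 are protein-coding. Of these, 76 are core members, 46 of the large subunit and 30 of the small subunit. The other 8 are paralogues, that is, further genes copied from a core gene (Rpl3l, Rpl7l1, Rpl10l, Rpl22l1, Rpl36al, Rpl39l, Rps27l and Rps27rt). The level of a gene was not used to choose it.

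The RNA came from limb tissue of C57BL/6J mice (embryonic day 14.5), and the labels name no treatment or altered allele. The libraries hold rRNA-depleted polyadenylated RNA longer than 200 nucleotides, read as strand-specific pairs. All samples form 1 group of 2 biological replicates, each pooled from littermates of both sexes, so no conditions can be compared. The labels give both pools the same donor identifier and do not say whether the litters were separate, so the spread between them may be partly technical. Gene rows held 110172148 estimated counts in replicate 1 and 103363136 in replicate 2.

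Each ribosome carries 1 copy of nearly every protein, so the cell needs these proteins in like numbers. The exception is the lateral stalk of the large subunit, in which Rplp0 holds several copies of Rplp1 and Rplp2 and recruits translation factors. Vertebrate ribosomal protein mRNAs begin with a 5′ terminal oligopyrimidine (TOP) tract, a cytosine followed by a run of pyrimidines through which growth signals tune their translation. Some members are tied to patterning: in mice, loss of Rpl38 function alters the axial skeleton and translation of Hox mRNAs.

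The limb identity of both libraries was checked on markers. The mesenchyme genes Prrx1 (101.4 and 100.6 TPM), Hoxd13 (90.7 and 122), Tbx5 (26.1 and 28.9) and Tbx4 (31.2 and 43.1) were present in replicates 1 and 2, where TPM is a level scaled by transcript length and library size. Cartilage Col2a1 and Matn1, muscle Myog, Acta1 and Ckm, and epidermal Krt14 and Krt5 lay between 55.0 and 1622 TPM. The erythroid genes Hba-a1 and Hbb-bs lay between 3430 and 6730 TPM, so blood RNA was part of the tissue. Of 3 testis markers Prm1 had 0 counts, and Ddx4 and Sycp3 stayed at or below 0.61 TPM. The heart gene Myh6 had 0.56 and 0.31 TPM, and the liver genes Alb and Afp had 5.70 and 1.10 TPM and 19.6 and 23.6 TPM.

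The 84 genes together took 4.55% of the counts in replicate 1 (95% Wilson interval 4.547 to 4.555%) and 3.51% in replicate 2 (3.506 to 3.513%), a mean of 4.03% ± 0.736 (SD, n = 2). The intervals cover counting error only, and the gap between the libraries is many times wider than they are. Their share of TPM, which divides by length, was larger, at 14.5% and 11.5%, or 13.0% ± 2.11 (SD, n = 2). All 76 core genes were above 100 TPM in both libraries. Among protein-coding genes 49 of them ranked within the top 100, 75 within the top 500, and the lowest ranked 547.

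The messages were far from equal in number. Mean TPM of the 76 core genes ran from 219 for Rpl5 to 7913 for Rplp1, a 36.2-fold range, with a median of 1209. Most genes sat much closer together: 53 lay within 2-fold of the median and 73 within 4-fold, with 15 above the 2-fold band and 8 below it. Quartiles were 870 and 2059 TPM, a 2.37-fold ratio. Across genes the SD of log2(TPM + 1) was 0.97, with 0.92 in replicate 1 and 1.06 in replicate 2. A single gene differed between libraries with a median SD of 0.28 on the same scale. The SD across genes was 3.42 times this median. The median is taken over SDs of 2 values each, an unlike measure, so the ratio is only a rough guide. The order of the genes was alike in both libraries (Spearman rho 0.901 over 76 genes, which share library, depth and gene models). Neighbours in that order were mostly not separable: for 72 of 75 adjacent pairs the 2 values of one gene overlapped those of the next.

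**Figure D1:**
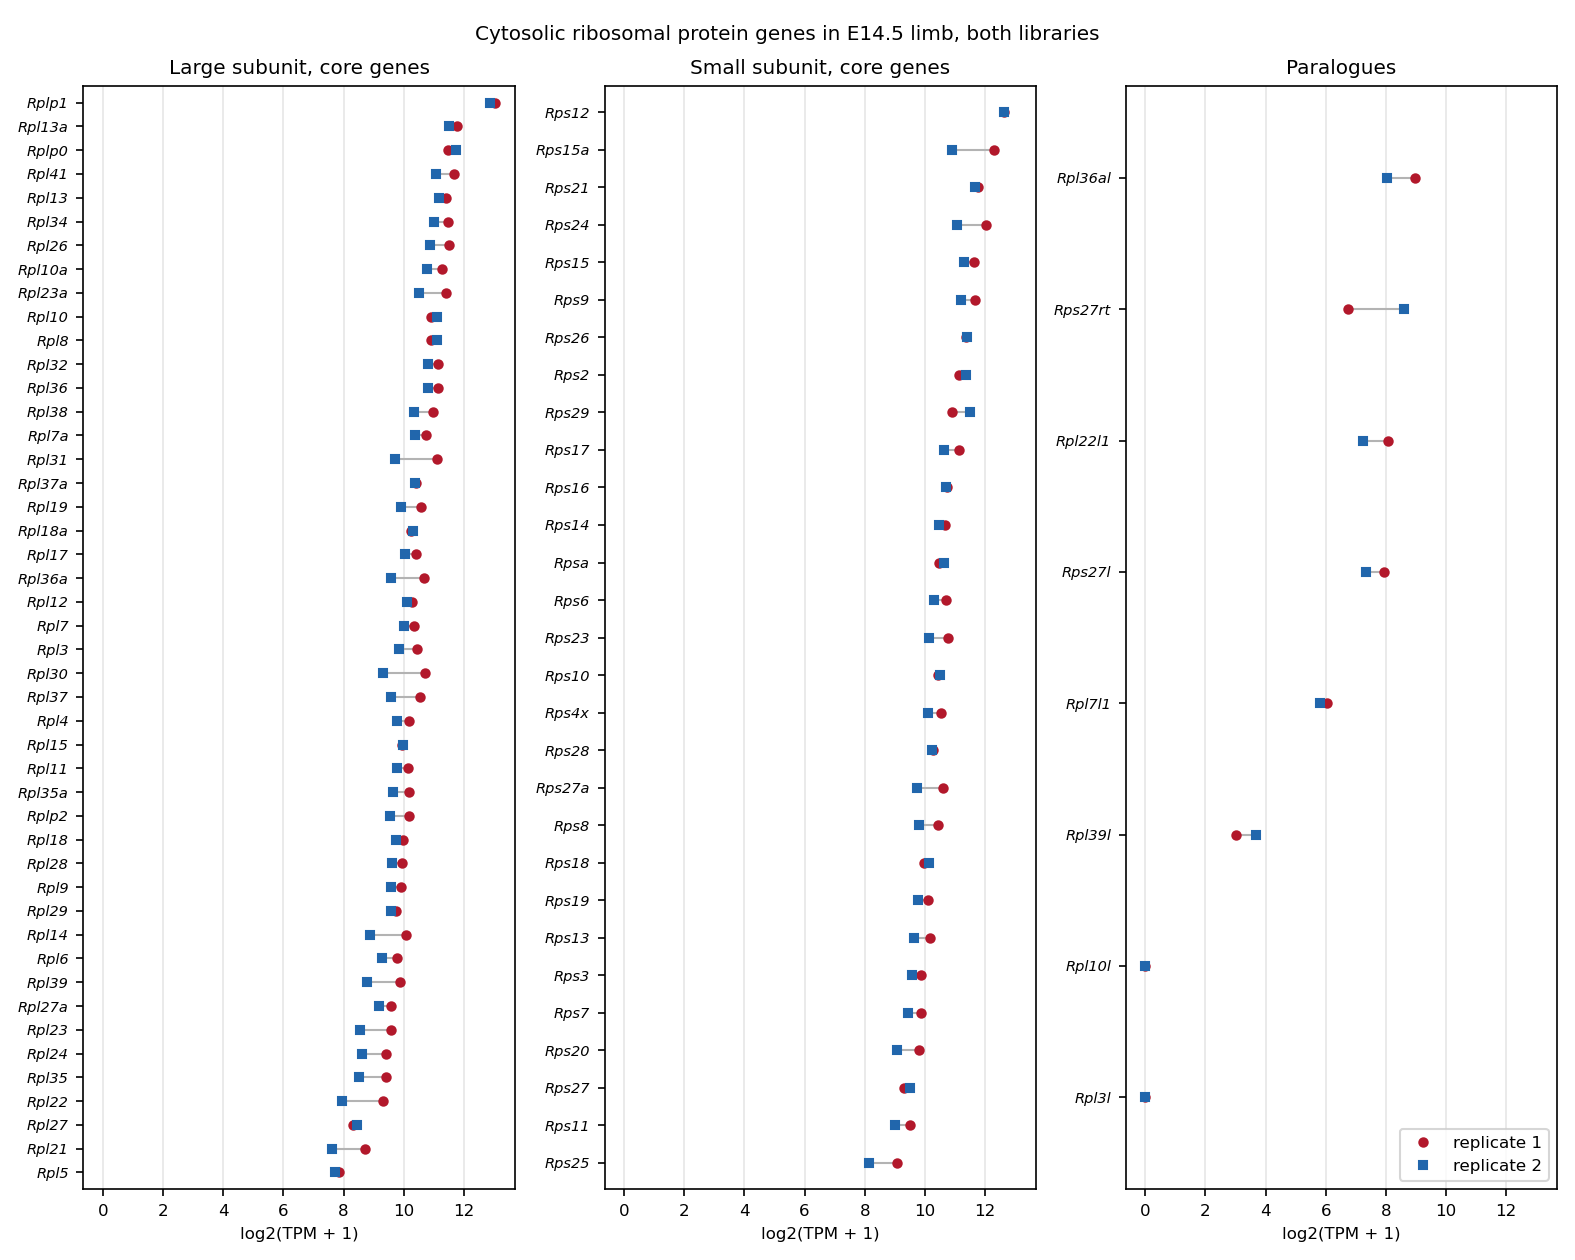
Level of 83 of the 84 genes in log2(TPM + 1), ordered by mean within the large subunit, the small subunit and the paralogues; circles are replicate 1, squares replicate 2, and the grey line joins them. Core genes lie between 219 and 7913 mean TPM, and 2 paralogues lie at 0.

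Among the stalk proteins, which are not present at 1 copy each, the RNA levels differed widely. Rplp1 (ENSMUSG00000007892.7, chromosome 9, 61913284 to 61914542) was the highest of all members, with 8394 and 7433 TPM in replicates 1 and 2. It stood clear of the next gene in both. The scaffold gene Rplp0 (ENSMUSG00000067274.6, chromosome 5, 115559467 to 115563727) had 2839 and 3397 TPM. Rplp2 (ENSMUSG00000025508.9, chromosome 7, 141447370 to 141451585), whose protein pairs with that of Rplp1, had 1150 and 744 TPM, below the core median in both libraries. The stalk genes thus kept the order Rplp1, Rplp0, Rplp2 without overlap.

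Rps12, a protein near the beak of the small subunit, came second with 6399 and 6340 TPM (ENSMUSG00000061983.6, chromosome 10, 23785183 to 23787275). It was also clear of both neighbours. Rps15a had 5054 and 1904 TPM (ENSMUSG00000008683.12, chromosome 7, 118104372 to 118116188), so its rank of 3 rests on replicate 1. Rps21 had 3510 and 3251 TPM, and Rpl13a, whose protein is also known from mammalian cells as a translational silencer once released from the ribosome, had 3475 and 2894 TPM. Rps24, a gene mutated in some human Diamond-Blackfan anaemia, had 4217 and 2124 TPM. The values of the last 3 genes overlap one another and those of Rplp0.

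At the low end stood Rpl5 (ENSMUSG00000058558.8, chromosome 5, 107900502 to 107909005), with 228 and 210 TPM. Its protein carries 5S rRNA into the large subunit together with Rpl11. Rpl11 itself had 1117 and 865 TPM, below the core median of each library but well above Rpl5. Rpl21 had 422 and 194 TPM, Rpl27 320 and 345, Rps25 535 and 280, Rpl22 634 and 243, and Rpl35 670 and 366. Of the 6 lowest genes, 5 belong to the large subunit, which holds 46 of the 76 core genes.

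Some members outside these extremes are named here for their known roles, chosen after their values were seen. Rpl38 lay above the core median, with 2013 and 1280 TPM. Rpl24, altered in the mouse Belly spot and tail mutant, was among the lower genes, with 678 and 392 TPM. Rps6, the substrate of the S6 kinases, had 1678 and 1275 TPM. Rps19, the gene most often mutated in human Diamond-Blackfan anaemia, had 1102 and 863 TPM. Rps27a, which is made as a fusion with ubiquitin, had 1536 and 860 TPM. In all 5 the value in replicate 1 was the higher, as in most of the family.

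The large subunit genes had a median of 1156 TPM and the small subunit genes a median of 1454 TPM. The difference of medians, large minus small, was -0.37 on the log2(TPM + 1) scale, and -0.25 and -0.58 in replicates 1 and 2. The libraries thus gave values 0.33 apart. By counts per annotated length the difference was -0.30, and by counts scaled by library size alone -0.16. It was not tested.

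The rule misses ribosomal proteins whose symbols take another form. Rps3a1, a small subunit protein, had 1593 and 888 TPM. Fau, which makes Rps30 as a fusion with a ubiquitin-like protein, had 1582 and 1182 TPM. Rack1, a signalling scaffold bound to the small subunit, had 1715 and 2185 TPM. All 3 fell inside the range of the core.

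For comparison, the 77 mitochondrial ribosomal protein genes had a median of 52.9 TPM and an SD across genes of 0.98 on the log2 scale, close to the 0.97 of the cytosolic core. The 14 genes of the proteasome core, in which each subunit is also present in equal number, had a median of 181 TPM and a smaller SD of 0.44. The ratio of upper to lower quartile was 2.37-fold in the cytosolic ribosome, 2.23-fold in the mitochondrial ribosome and 1.34-fold in the proteasome core. These are descriptions of gene lists of different size, with no test.

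**Figure D2:**
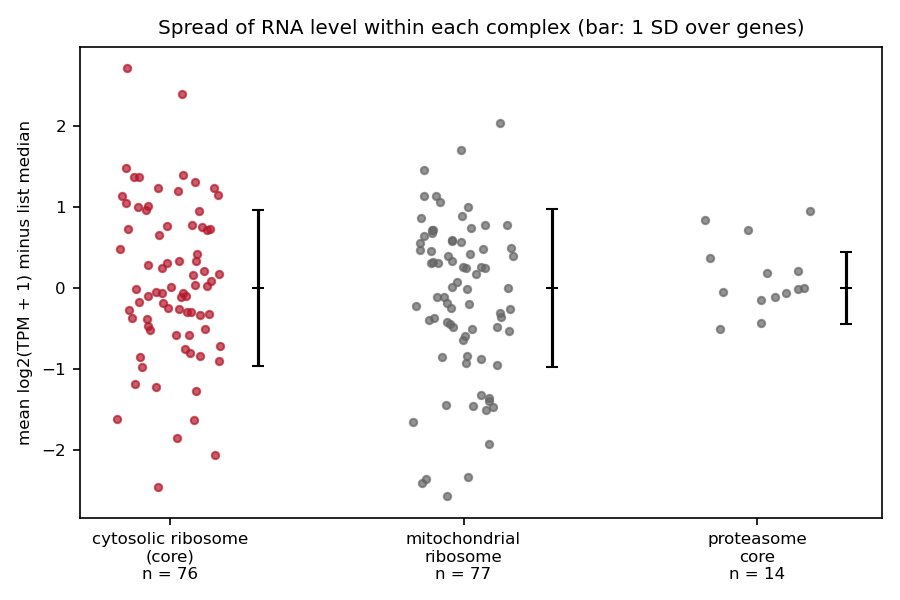
Mean log2(TPM + 1) of each gene minus the median of its list, for the 76 core genes, 77 mitochondrial ribosomal protein genes and 14 proteasome core genes; points are genes, shifted sideways at random for visibility, and bars give 1 SD over genes to either side of the median. The SDs are 0.97, 0.98 and 0.44.

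Many of these transcripts are short. Effective length, the length left to place a fragment in, was shorter than annotated length by up to 199 nucleotides in replicate 1 and 226 in replicate 2. The median effective length of the core was 528 and 507 nucleotides, and 30 genes were under 400. Level and effective length correlated with Spearman rho -0.44 over 76 genes in TPM, which holds that length as its divisor. The same correlation was 0.36 for CPM, counts scaled by library size alone, and -0.21 for counts divided by annotated length. Without the 30 short genes the SD across genes was 0.85, against 1.04 by CPM and 0.93 by counts per annotated length over all 76. The part of length in the spread was not tested. Rplp1, Rps12, Rplp0 and Rpl13a were also among the 5 highest by counts per annotated length, while Rps15a ranked 7, Rps24 10 and Rps21 13.

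Counts of these genes were often shared with copies elsewhere in the genome. A deposited expected count that is not whole (by over 0.005) marks reads divided among genes, and 67 of 76 core genes had one (88.2%). Of all 9623 genes averaging 10 TPM or more, 1179 had one (12.3%). The rows named as pseudogenes of the family (-ps) numbered 256. Of these, 51 reached 1 TPM in both libraries and 25 were over 10 TPM. Together they held 1.81% and 1.59% of the count of the 84 members. Copies under other names, such as Rps4l, are not in that sum. For single genes the split was large. Rpl27-ps3 had 1245 and 1075 TPM, above Rpl27 itself at 320 and 345 TPM. Rpl31-ps8 had 588 and 380 TPM beside Rpl31 at 2176 and 843 TPM. Rpl15-ps3 had 388 and 204 TPM beside Rpl15 at 981 and 1013 TPM. Levels of Rpl27 and of other genes with such copies are therefore uncertain, and the place of Rpl27 among the lowest genes depends on how the reads were assigned.

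The clearest case of shared sequence is the Rps27 family, small subunit proteins with a zinc finger. The coding sequences below are shown because they decide whether reads can be told apart. They were read from the GRCm38 genome with GENCODE M21 exons, without the stop codon, and capitals mark bases that differ from Rps27. Rps27 lies on the minus strand of chromosome 3 (coding span 90212728 to 90213615). Rps27rt is a single-exon copy on the minus strand of chromosome 9 (114982456 to 114982707), and Rps27l lies on the plus strand of chromosome 9 (66946175 to 66949354).
Rps27: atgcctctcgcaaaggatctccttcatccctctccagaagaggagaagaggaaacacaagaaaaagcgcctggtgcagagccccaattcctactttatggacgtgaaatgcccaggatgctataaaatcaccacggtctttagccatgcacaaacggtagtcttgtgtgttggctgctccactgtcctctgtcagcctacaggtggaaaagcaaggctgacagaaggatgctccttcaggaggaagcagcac
Rps27rt: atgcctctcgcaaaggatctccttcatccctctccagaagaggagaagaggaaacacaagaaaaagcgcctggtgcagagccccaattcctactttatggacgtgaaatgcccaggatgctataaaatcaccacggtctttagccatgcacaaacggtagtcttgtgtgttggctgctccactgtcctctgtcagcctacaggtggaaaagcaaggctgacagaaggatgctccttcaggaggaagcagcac
Rps27l: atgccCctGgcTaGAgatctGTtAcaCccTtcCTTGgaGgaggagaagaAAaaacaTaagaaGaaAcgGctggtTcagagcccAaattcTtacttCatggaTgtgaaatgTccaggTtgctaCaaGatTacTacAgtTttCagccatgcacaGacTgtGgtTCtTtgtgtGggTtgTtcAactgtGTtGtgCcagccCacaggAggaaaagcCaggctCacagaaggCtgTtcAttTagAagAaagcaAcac

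Rps27rt and Rps27 are identical over all 252 coding bases, so a read inside that stretch cannot be given to either. Rps27l differs from Rps27 at 60 of the 252 bases (76.2% identity), and its counts were whole in both libraries. Rps27rt had 1358 and 3907 counts and Rps27 had 2705 and 1686 counts in replicates 1 and 2. The sum of the pair was 4063 and 5593 counts, and the larger part went to Rps27 in replicate 1 and to Rps27rt in replicate 2. Rps27l had 5615 and 3141 counts.

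The TPM of Rps27 rests on a very short model. In the tables it is a single transcript of 255 nucleotides with an effective length of 57.8 and 33.4 nucleotides, the shortest of the core. In the later GENCODE M21 the leading transcript measures 345 nucleotides. On the TPM scale Rps27rt had 106 and 388 TPM and Rps27l had 243 and 160 TPM, against 624 and 723 TPM for Rps27. On this scale the log2 difference, Rps27l minus Rps27, was -1.76 (95% interval -2.42 to -1.10). By CPM, Rps27l was higher than Rps27 (0.94), and by counts per annotated length they did not differ beyond the interval (-0.02). The order of these 3 genes cannot be read from the tables.

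The start of each gene gives further context. The windows below run from 30 bases before to 30 bases from the RefSeq transcript start (GRCm38.p6), and are shown because Rps27rt has its own start annotated. Capitals mark CTTTCC on the sense strand or CCGGAAG on either strand, the second a core motif of ETS-family factors. Rps27 is at chr3:90213619-90213678 (minus strand), Rps27rt at chr9:114982710-114982769 (minus), Rps27l at chr9:66946056-66946115 (plus) and Rpl31 at chr1:39367821-39367880 (plus). A further annotated start of Rps27l, with its window at chr9:66946383-66946442 (plus), holds neither of these letter strings there and is not shown. Rpl31 was added as a core gene with a large difference between the libraries, a choice made after the data were seen. Its log2 ratio of TPM, replicate 2 over replicate 1, was -1.37. Rps15a, Rpl30 and Rpl22 had slightly lower ratios (-1.41, -1.40 and -1.39), and their windows are not shown. Whether CCGGAAG goes with the difference between the libraries was not tested.
Rps27: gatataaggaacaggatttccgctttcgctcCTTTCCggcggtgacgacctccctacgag
Rps27rt: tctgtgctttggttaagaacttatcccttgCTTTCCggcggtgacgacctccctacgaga
Rps27l: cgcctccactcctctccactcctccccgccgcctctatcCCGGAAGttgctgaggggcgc
Rpl31: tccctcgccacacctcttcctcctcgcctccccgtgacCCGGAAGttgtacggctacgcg

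From its annotated start Rps27rt matched Rps27 without a difference for 38 bases, shifted by 1 base, and 39 of the 50 bases after the start were the same. These windows are genomic, and the coding span of Rps27 holds introns that the single exon of Rps27rt lacks. The differences past the matched stretch are therefore not differences between the coding sequences, which are identical. Before the start 5 of 30 bases matched. The shared stretch thus begins next to the annotated transcript start of Rps27. Across the family, windows of 300 bases (250 before to 50 after the start) were found for 56 of 76 core genes, 66 windows in all. CCGGAAG on either strand was in 36.4% of them, and in 8.86% of all 32851 windows. CTTTCC on the sense strand within 50 bases of the start was in 31.8%, and in 4.69% of all windows. A pyrimidine run of at least 8 bases that begins with C, which can hold the CTTTCC letters too, was in 81.8% within 50 bases of the start, and in 28.8% of all windows. The annotated first base was C in 30.3% of core windows and 16.3% of all windows. TATAAA from 50 bases before to 10 after the start was in 1.52% of core windows and 2.82% of all. The 10 windows of the 8 paralogues held CCGGAAG in 2 and a pyrimidine run in 5. These matches are letters in a window and were not tested as sites.

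Each paralogue was set against its parent within the limb. The difference of log2(TPM + 1), paralogue minus parent, came from a limma fit over 15057 genes and is given with its SE and the 95% interval, with no p-value. The interval includes the spread between the 2 libraries only and treats the genes of a pair as independent, although both were measured in the same libraries. A fit to the differences within each library is given where a pair came close to 0.

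The paralogues known for testis or striated muscle were at 0 or low. Rpl3l, which replaces Rpl3 in mature heart and skeletal muscle, had 0 counts in both libraries, against 1372 and 923 TPM for Rpl3. A count of 0 allows up to 3 counts, here 0.0498 and 0.0554 TPM, so Rpl3 was at least 27552-fold and 16669-fold higher. Rpl10l, a retrogene that serves male germ cells in place of X-linked Rpl10, also had 0 counts, against 1923 and 2186 TPM for Rpl10 (at least 39625-fold and 40535-fold higher). Rpl39l, another gene of male germ cells, was low but not at 0. It had 7.11 and 11.7 TPM from 314 and 461 counts, against 939 and 439 TPM for Rpl39. The difference was -5.98 (SE 0.34, interval -6.85 to -5.12), and Rpl39l made up 0.751% and 2.60% of the pair.

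The coding sequences of this pair show that reads can be told apart in many places. They are printed from the same sources, with capitals where Rpl39l differs from Rpl39. Rpl39 lies on the minus strand of chromosome X (coding span 37082704 to 37085127) and Rpl39l on the plus strand of chromosome 16 (10174310 to 10174462).
Rpl39: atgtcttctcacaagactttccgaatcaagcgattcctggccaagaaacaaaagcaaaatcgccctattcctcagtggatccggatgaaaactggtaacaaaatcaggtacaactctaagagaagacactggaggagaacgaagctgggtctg
Rpl39l: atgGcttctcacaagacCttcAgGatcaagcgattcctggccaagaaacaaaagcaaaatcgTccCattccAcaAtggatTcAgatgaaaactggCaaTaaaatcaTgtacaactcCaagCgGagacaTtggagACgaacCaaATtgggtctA

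The pair differs at 23 of 153 bases (85.0% identity), and the counts of Rpl39l were whole. The germ cell marker Prm1 was at 0 counts. Ddx4 and Sycp3 had at most 121 and 6 counts. Which cells the Rpl39l reads came from was not tested.

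The other paralogues were expressed at levels nearer to their parents. Rpl36al, a retrogene of X-linked Rpl36a, had 500 and 260 TPM, against 1631 and 760 TPM for Rpl36a. It supplied 23.5% and 25.5% of the pair, and the difference was -1.62 (SE 0.39, interval -2.62 to -0.63), with -1.70 and -1.55 within the libraries. Fitted without a filter on low genes, this difference had an interval of -4.73 to 1.49, which includes 0. Rpl22l1 had 268 and 150 TPM, against 634 and 243 TPM for Rpl22, and supplied 29.7% and 38.1% of the TPM of the pair. In counts it had 7465 and 3813 against 25688 and 16141, and the effective length of Rpl22 was 540 and 953 nucleotides. The difference of Rpl22l1 to Rpl22, -0.97 (SE 0.41), had an interval of -2.01 to 0.08, so on the TPM scale it was not beyond the interval. Within the libraries it was -1.24 and -0.69, and a limma fit to such within-library differences over the 9 pairs gave an interval of -2.04 to 0.10. By counts per annotated length the difference was -1.24 and by CPM -1.91, both with intervals below 0. Rpl7l1, whose human protein is found in nucleolar precursors of the large subunit, had 64.6 and 55.0 TPM, against 1298 and 1030 TPM for Rpl7. Its difference was -4.25 (SE 0.24, interval -4.85 to -3.66), and -2.65 by CPM. Coding identity to the parent was 87.7% for Rpl36al, 73.3% for Rpl22l1 and 64.9% for Rpl7l1.

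Rps4l, which GENCODE M21 lists as a transcribed processed pseudogene and which is therefore no member, had 200 and 289 TPM, against 1483 and 1109 TPM for its X-linked parent Rps4x. The difference was -2.41 (SE 0.27, interval -3.10 to -1.72). Rpl37rt and Rpl6l were left out for the same reason and had 86.0 and 66.4 TPM and 4.75 and 2.10 TPM. Counting Rps27rt, whose difference to Rps27 was -1.72 (SE 0.46, interval -2.90 to -0.55), the interval left out 0 in 8 of 9 pairs, of which that of Rps27l changed direction by CPM (0.94, interval 0.40 to 1.48). By CPM that of Rps27rt was 0.11, with an interval of -0.65 to 0.87 that includes 0 and values of -0.94 and 1.16 in the libraries.

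**Figure D3:**
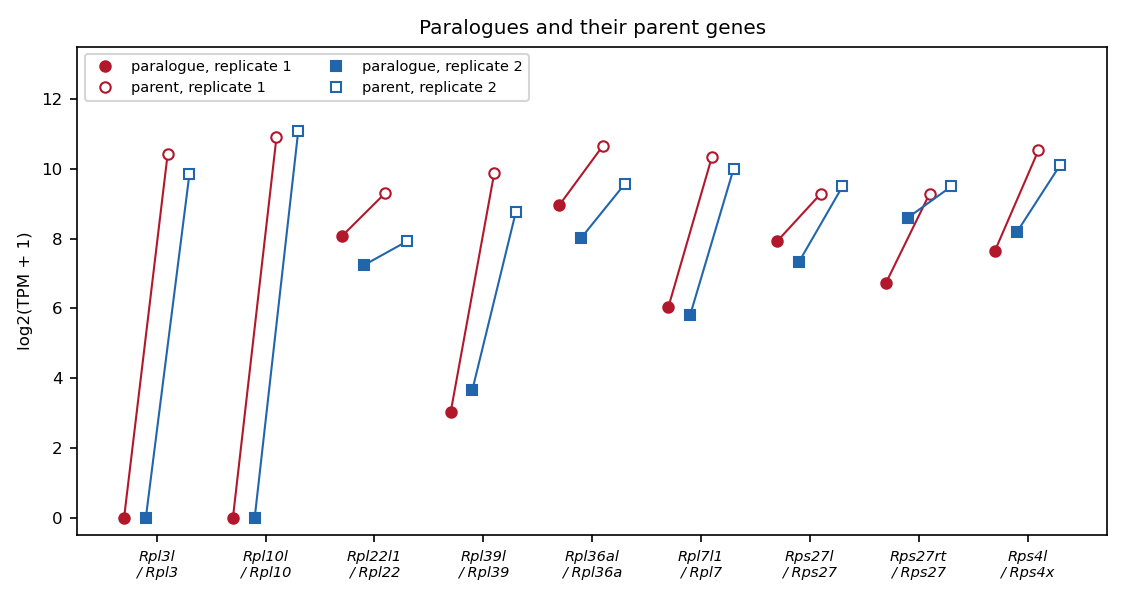
Level in log2(TPM + 1) of each paralogue (filled) and its parent (open), joined by a line for each library; circles are replicate 1 and squares replicate 2. Rpl3l and Rpl10l lie at 0 in both libraries, and the lines of the other pairs all rise toward the parent.

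Replicate 2 had lower levels of most members than replicate 1. Of the 81 members averaging 10 TPM or more, 27 (33.3%) were past 1.5-fold lower in replicate 2, where 5.95% of all 9623 genes were. Past 1.5-fold higher were 2 members (2.47%), Rps29 and Rps27rt, where 2.67% of all genes were. By CPM the numbers were 33 lower, with 6.25% of all genes, and 1 higher, with 1.11% of all genes. This sets 1 library against another and carries no test. In a bulk sample, fewer cells of a type and less RNA per cell cannot be told apart.

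The shift ran through both subunits. The median log2 ratio of TPM, replicate 2 over replicate 1, was -0.38 over the 76 core genes, and 0.04 over all genes. Of the core genes 62 were lower and 14 higher in replicate 2, where 4292 of all 9623 genes were lower. The large subunit had a median of -0.41, with 17 of 46 genes past 1.5-fold lower. The small subunit had a median of -0.35, with 7 of 30 lower and 1 higher. Of all genes, 5.95% were past 1.5-fold lower and 2.67% past 1.5-fold higher. The 512 genes outside the family at least as high as the lowest core gene had a median of 0.05, with 45 past 1.5-fold lower and 23 past 1.5-fold higher. They share a minimum level with the core and are not matched to it in level, and the part of abundance in the shift was not tested.

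**Figure D4:**
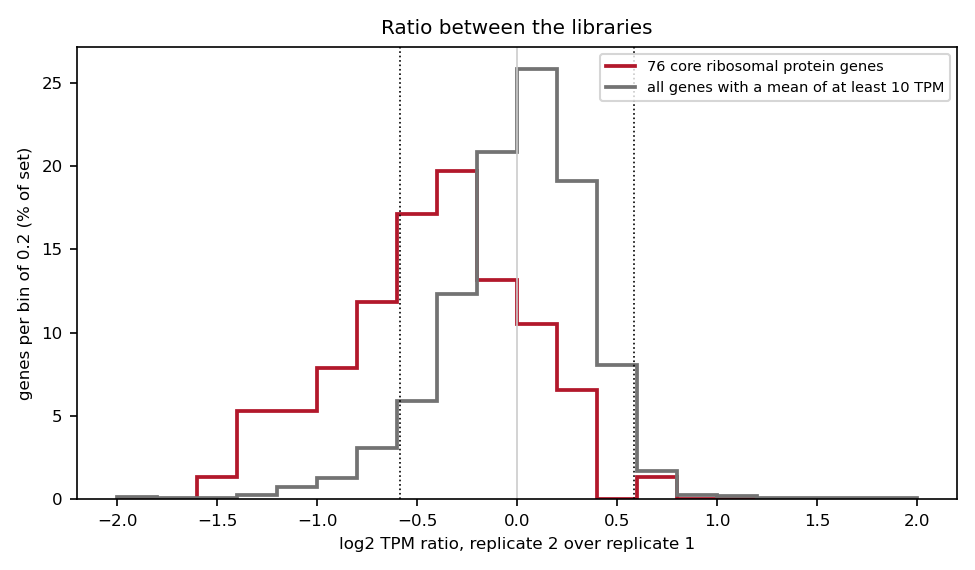
Distribution of the log2 TPM ratio, replicate 2 over replicate 1, for the 76 core genes (red) and all 9623 genes averaging 10 TPM or more (grey), as percent of each set per bin of 0.2; dotted lines mark 1.5-fold. The core is centred at -0.38 and all genes at 0.04.

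The 5 core genes with the lowest log2 TPM ratios were Rps15a at -1.41, Rpl30 at -1.40, Rpl22 at -1.39, Rpl31 at -1.37 and Rpl14 at -1.21. Rpl31, a protein at the rim of the exit tunnel, had 2176 TPM in replicate 1 and 843 TPM in replicate 2. Rpl14 had 1084 and 469 TPM. For these 2 genes the CPM ratios were -1.47 and -1.27, about as large. For Rps15a, Rpl30 and Rpl22 the CPM ratios were smaller, at -0.89, -0.76 and -0.58, and the effective length was longer in replicate 2. It was 204 and 295 nucleotides for Rps15a, 279 and 437 for Rpl30, and 540 and 953 for Rpl22.

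Toward the other end were Rps29 at 0.61, Rplp0 at 0.26, Rps27 at 0.21 and Rps2 at 0.21. Rps29, a zinc-binding protein of the small subunit head, had 1891 and 2880 TPM. Rps2, a protein of the mRNA entry region, had 2255 and 2605 TPM. The CPM ratio was positive for Rps29, Rplp0 and Rps2 (0.38, 0.21 and 0.08), and negative for Rps27 (-0.59).

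GC content moved with this difference, in the family and in all genes, a look taken after the shift was seen. The GC content of the leading transcript was known for 75 core genes, whose median of 51.8% was close to the 51.5% of all genes. Across these 75 genes the log2 ratio and GC content had a Spearman rho of 0.36, and across 9532 genes 0.50. Genes share their libraries, so these are descriptions. The lower-GC core genes (38) had a median ratio of -0.51 with 16 past 1.5-fold lower, and the higher-GC core genes (37) had -0.22 with 8. All genes on the same sides of that GC value had medians of -0.09 and 0.18, with 8.72% and 2.86% past the fold. The core was thus lower than all genes on either side, and the part of GC content in the difference was not tested.

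**Figure D5:**
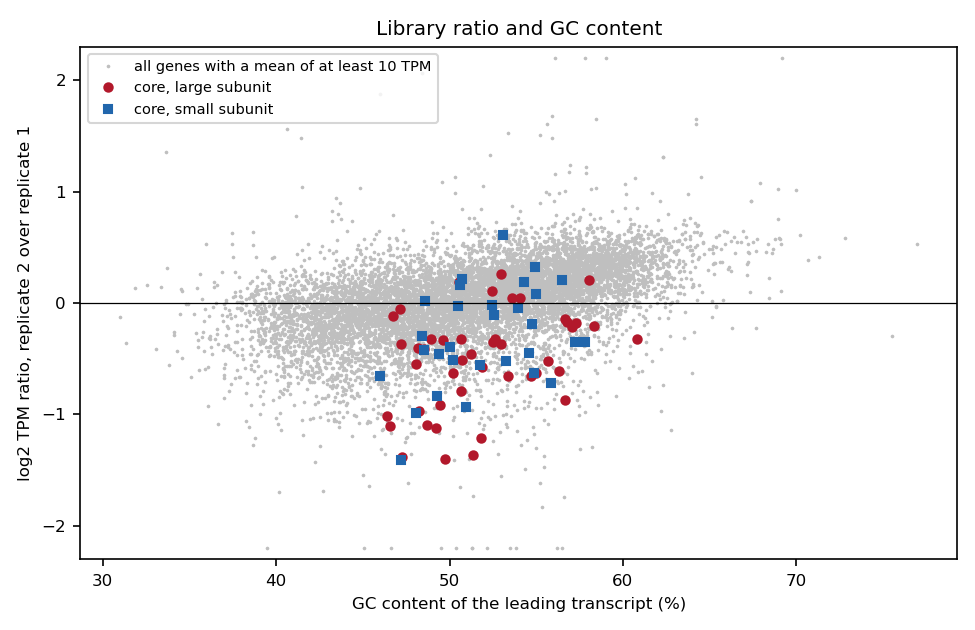
Log2 TPM ratio, replicate 2 over replicate 1, against the GC percentage of the leading transcript; grey points are all genes averaging 10 TPM or more, red circles large subunit and blue squares small subunit core genes, and values past 2.2 are drawn at the edge. Core genes span 46.0 to 60.8% GC, and 34 of the 38 lower-GC and 27 of the 37 higher-GC ones lie below 0.

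Other lists of the translation machinery were given the same look. Among all 9623 genes, 4292 were lower in replicate 2, 5.95% were past 1.5-fold lower and 2.67% past 1.5-fold higher. Of 23 further genes with TOP mRNAs, which include ribosomal genes that the rule misses, 18 were lower in replicate 2, 8 were past 1.5-fold lower and 0 past 1.5-fold higher. Their median was -0.30. The 4 highest were the elongation factor Eef1a1 (7591 and 6168 TPM), Tpt1 (2115 and 2039), Rack1 and Fau. Of 37 ribosome assembly genes, 30 were lower, 11 past 1.5-fold lower and 1 higher, with a median of -0.30. In this list Nop56, Fbl and Nop10, proteins of small nucleolar particles, had 266 and 292, 233 and 184, and 125 and 120 TPM. Ncl, encoding nucleolin, had 167 TPM in replicate 1 and 51.7 TPM in replicate 2, a log2 ratio of -1.69 and the lowest of the list.

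Of 73 mitochondrial ribosomal protein genes averaging 10 TPM or more, 55 were lower, with a median of -0.28, and 6 were past 1.5-fold lower, a share near that of all genes. Mrpl17 (248 and 194 TPM), Mrps33 (186 and 161), Mrpl52 (165 and 129) and Mrps16 (108 and 126) were the highest. In the proteasome core 10 of 14 genes were lower and 0 past the fold, with a median of -0.21. Psmb6 (350 and 345 TPM), Psmb3 (306 and 344), Psmb4 (286 and 306) and Psma7 (251 and 215) led that list. The cytosolic ribosome had the lowest median of these lists, and the difference between lists was not tested.

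Over the core genes the leading transcript held a median of 96.1% of its gene, and in 47 it was over 90% in both libraries. These 47 include 19 genes with a single transcript in the tables, whose share was fixed by the gene models. Both values therefore overstate how far 1 transcript led in genes that have more than 1. Rps24, known for tissue-specific splicing of its small 3′ exons, gave 98.4% and 98.9% to a 468-nucleotide form. The tables hold only 2 transcripts of this gene, so splice forms outside these models could not be seen. In 10 genes the leading form was under 50% in a library. Rpl15 had its leading form at 43.4% and 41.4%. In Rps10 the highest forms measured 519 and 614 nucleotides, with 46.5% and 46.2% in replicate 1 and 44.6% and 31.5% in replicate 2. In Rpl5, the gene with the lowest level of the core, a retained-intron transcript led in TPM with 48.9% and 47.0%. By counts a protein-coding form of 2045 nucleotides led, with 53.6% and 37.2% against 31.2% and 35.2%.

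In some genes the shares of the transcripts differed between libraries, and with them the effective length of the gene. In Rpl30 a 388-nucleotide non-coding transcript held 59.1% in replicate 1 and 28.1% in replicate 2, while an 886-nucleotide coding form held 2.59% and 33.9%. In Rps15a a 250-nucleotide transcript gave 83.9% and 70.8% of the gene's TPM from 21.7% and 7.08% of its counts. Its effective length was 52.9 and 29.5 nucleotides. In Rpl22 a 474-nucleotide form held 80.9% and 50.1%, and in Rplp2 a 421-nucleotide form held 40.0% and 1.92%. Effective length differed over 1.2-fold between libraries in 7 core genes. Without all such genes in the table, 23 of 74 members were past 1.5-fold lower in replicate 2 (31.1%), where 5.21% of 9105 genes were.

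The family is spread widely, with core genes on 19 chromosomes. Chromosome 7 holds 14, chromosome 11 holds 7, and chromosomes 9 and 17 hold 6 each. The X chromosome holds Rpl10, Rpl36a, Rpl39 and Rps4x. Their median of 1246 TPM was close to the 1209 TPM of the autosomal genes. Their log2 TPM ratios, replicate 2 over replicate 1, were 0.18 for Rpl10, -0.42 for Rps4x, and -1.10 for both Rpl36a and Rpl39.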

How the data were processed

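Per the text file beside them, the authors' tables (genes and transcripts, 1 of each per library) were made against mm10 with GENCODE M4. The program that made them is not stated in any source used here. The deposited values are expected counts, TPM, posterior mean TPM and each transcript's percent of its gene, per the file headers. Deposited TPM bounds, of unstated level, lay a median of 0.894% and 1.11% to either side for core genes. Totals exclude ERCC, phiX and tRNA rows. Names came from GENCODE M21, and 884 gene rows had no match. Gene levels were compared with limma 3.58.1 (intercept only, eBayes with trend) on log2 of the deposited TPM plus 1, using genes averaging 1 TPM or more and all members, after a test on simulated data. Library ratios used genes averaging 10 TPM or more. Expected counts were rounded for DESeq2 1.42.0 and edgeR 4.0.16 scaling (TMM factors 1.01 and 0.992, DESeq2 size factors 1.04 and 0.961). Python 3.11.15 and R 4.3.3 were used. Members and lists were chosen with earlier results of these data known. The rule named the 6 highest and 6 lowest core genes, the stalk, paralogues and parents, the 5 largest library ratios each way, Rps24, the 3 genes with the lowest leading transcript share, the 4 highest of each further list, markers, and ribosomal genes the symbols miss. Some results on single genes that this rule would name are not reported here. Transcript, GC and start-window looks were added after seeing the data.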

Additional observations from a re-analysis of the deposited data

How the results depend on the processing

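Each paralogue was also paired to its parent within a library (replicate block, limma over the 9 pairs, chosen after seeing the data). In that fit 8 intervals left out 0, as without the block, and all 9 pairs shared an SE of 0.47. An earlier form of the fit, over all genes, was dropped, and in it the interval of Rpl36al included 0. The share of counts was 3.51 to 4.55% with 1 library left out, the SD across core genes 0.92 to 1.06, and large minus small subunit -0.58 to -0.25. One library gives no ratio and no limma interval. Other settings left these 3 results within 1 SD between libraries, except the SD across core genes, which was 0.85 without genes of effective length under 400 and 1.195 over the 9 genes with whole counts. Of the 81 members, 27 were past 1.5-fold lower in replicate 2. Past a log2 ratio of 0.32 there were 50 (15.4% of all genes) and past 2-fold 9 (1.31%). Among the 11 members with whole counts, a set chosen after seeing the data, 4 were lower (4.84% of all such genes) and 0 higher. Members past 1.5-fold higher numbered 2, and 1 by counts per annotated length, by CPM, with DESeq2 size factors, with TMM factors, or past 2-fold. Pairs with an interval leaving out 0 numbered 6 to 8 over the alternatives. They numbered 6 without a filter on low genes, where the intervals of Rpl36al and Rps27rt included 0 too. By CPM the differences of Rps27l (0.94) and Rps27rt (0.11, interval including 0) to Rps27 were reversed, and that of Rpl7l1 was -2.65. By counts per annotated length they were -0.02 and -0.42, with intervals that include 0. The shorter effective length of Rps27 enters TPM and not CPM. Depth did not limit the core genes, which had at least 1686 counts each, and with 2 libraries every spread is itself poorly known.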
